A study of Mus musculus with 15 samples.

Results

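Keratins and the proteins of the desmosome were described together, as 65 genes. The members are the genes of the table of normalized counts that are named as a keratin with a number and no letter suffix (Krt1 to Krt222), a desmoglein, a desmocollin, desmoplakin (Dsp), plakoglobin (Jup), a plakophilin (Pkp1 to Pkp3), periplakin (Ppl) or envoplakin (Evpl), and that had a mean of at least 1 normalized count over all libraries. Of 53465 genes in the table, 66 matched by name and 65 were kept, since Krt9 had a mean of 0.581. There were 49 keratins and 16 desmosome genes. Most lie in the keratin clusters of chromosomes 11 (26 genes) and 15 (25 genes) and in the cadherin cluster of chromosome 18 (9 genes).

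Keratins form the intermediate filaments of epithelial cells and work as pairs of an acidic and a basic keratin, with different pairs in different layers of the epidermis and hair follicle. Desmosomes join such cells and anchor those filaments: desmogleins and desmocollins bind across the gap, and plakoglobin, plakophilins and desmoplakin form the plaque inside. Endothelial cells build their filaments of vimentin and are held together by adherens junctions with VE-cadherin, to which plakoglobin can also bind.

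The libraries came from B16-F0 tumors, a mouse melanoma line, grown in the skin of CAG-GFP mice, which carry GFP in all their cells, and collected on day 15 from adults of 8 to 14 weeks. The GFP positive, lineage negative, CD34 positive cells of the tumor were sorted by surface CD31 and VEGFR2 into EVP (endovascular progenitors, low in both), TA (transit amplifying, intermediate CD31 and low VEGFR2) and D (definitive differentiated, high in both), with 5 libraries of each. The injected tumor cells carry no transgene, whereas any host cell type carries it, and no cell type was selected beyond the surface markers. Whether equal replicate numbers mark shared animals is not given in the sources used here, so that p-values measure the spread between libraries.

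The libraries held between 5394356 and 26513073 reads on genes. The 10 endothelial markers summed to between 2399 and 4490.3 normalized counts in EVP, between 6105 and 78701 in TA and between 109874 and 174081 in D, and 8 fibroblast markers between 840558 and 1494780.0 in EVP against between 979 and 4065 in D. The 8 melanoma markers summed to between 19137 and 182314 over all libraries, highest in TA. The libraries of replicate 1 had a read on the largest share of olfactory receptor genes. Of 1106 such genes, 98.3% had a read in EVP replicate 1, 89.2% in D replicate 1 and 81.6% in TA replicate 1. The share was 71.0% in TA replicate 3, 61.8% in EVP replicate 2 and 57.8% in TA replicate 2. It was 24.1% and 23.2% in D replicates 2 and 3, 14.5% in EVP replicate 3 and 2.89% to 5.06% in replicates 4 and 5. The part of this in the values of members was not tested.

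The members held between 0.0223% and 0.829% of all reads counted on genes (95% Wilson intervals from 0.0217% to 0.0229% and from 0.825% to 0.833%, which cover counting error only). In normalized counts their sum was 9361, 15306, 7956, 10265 and 3537 in EVP replicates 1 to 5, 34208, 126851, 42928, 9733 and 10006 in TA and 8711, 6673, 5344, 6759 and 4459 in D. TA replicate 2 was highest, followed by TA replicates 3 and 1, and TA replicates 4 and 5 lay within the range of EVP. The mean was highest in TA for 53 of the 65 members, in EVP for 10 and in D for 2 (Jup and Krt20).

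**Figure D1:**
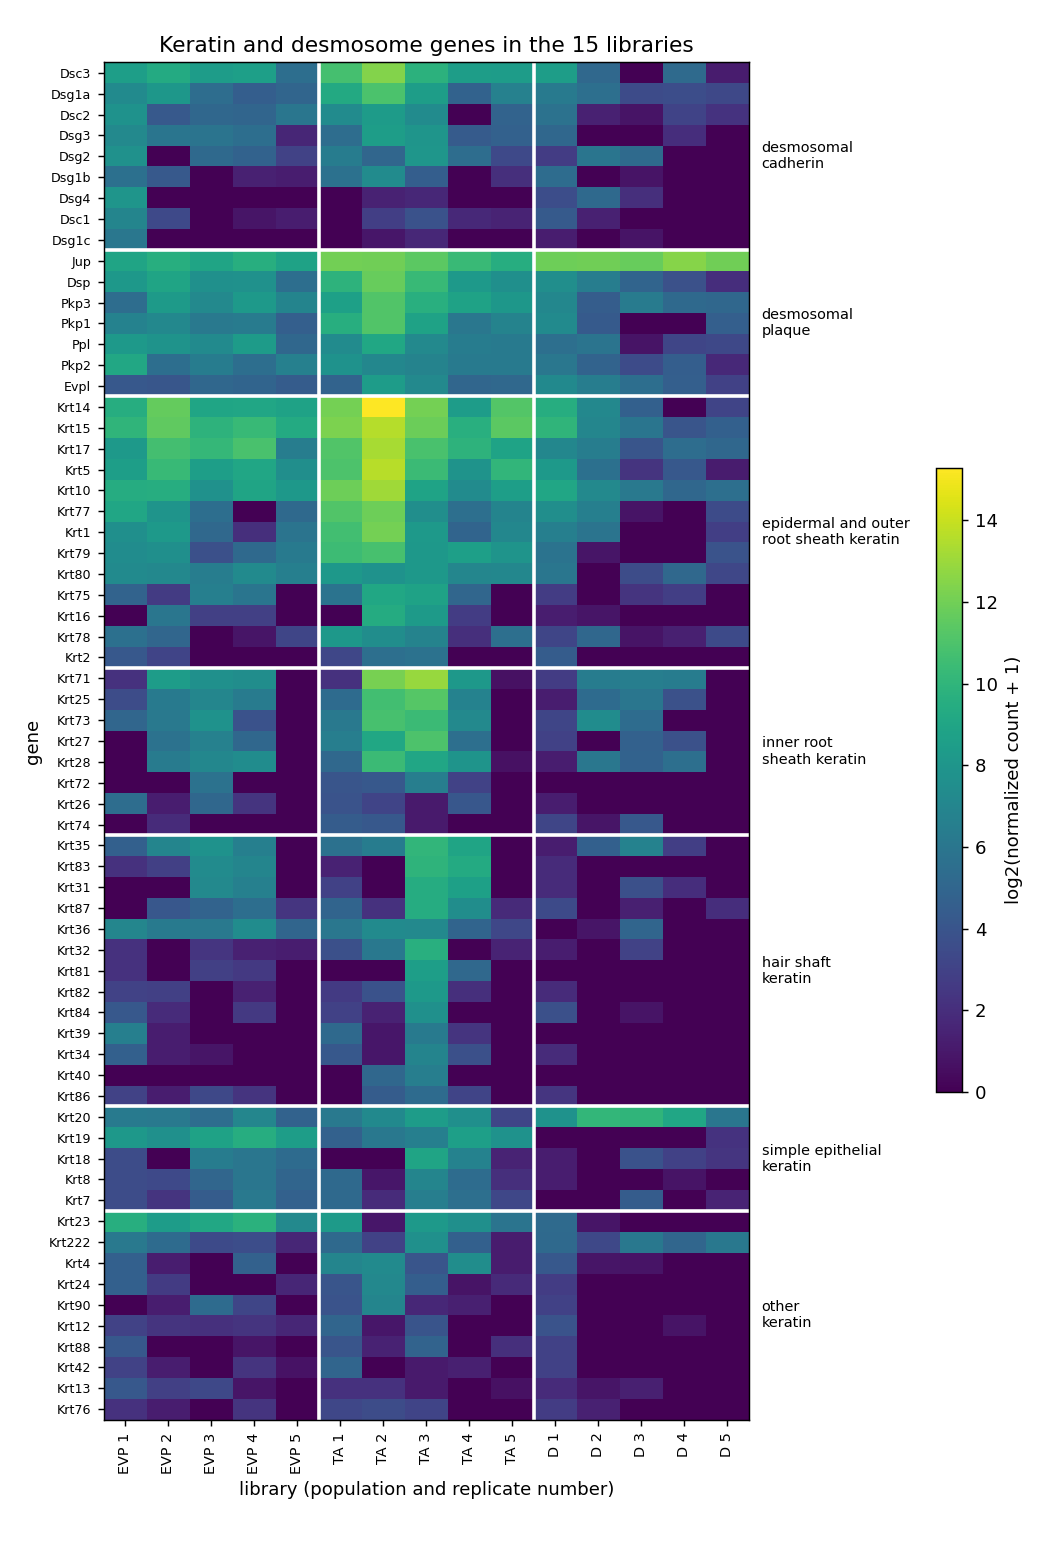
Heat map of log2(normalized count + 1) of the 65 members (rows, grouped by role and ordered by mean within a role) in the 15 libraries (columns, by population and replicate number). Most rows are brightest in TA replicates 2 and 3, Jup is bright in every D library, and the 5 most abundant inner root sheath keratins are dark in replicate 5 of each population.

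These maxima came from few libraries. TA replicate 2 held the highest value of 25 members and TA replicate 3 that of 22, against 7 for EVP replicate 1 and 5 for TA replicate 1. For 28 members more than 50% of the sum over all 15 libraries lay in 1 library (TA replicate 3 for 13, TA replicate 2 for 11, EVP replicate 1 for 3, TA replicate 1 for 1). The most abundant of these were Krt14 (69% of its sum in TA replicate 2), Krt5 (61.9%), Krt1 (60.1%), Pkp1 (52.5%), Krt10 (51.9%) and Krt77 (50.6%), all in TA replicate 2, and Krt71 (56.9%) and Krt25 (52.2%) in TA replicate 3.

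The populations were compared with limma on log2(normalized count + 1) for genes averaging 5 or more normalized counts, which took in 59 members, and an adjusted p under 0.05 was the threshold over all 25549 genes tested. Between EVP and D, 16 of 59 members passed (27.1%, against 19.0% of all genes). Of these, 14 were higher in EVP (23.7%, against 11.6%) and 2 in D (3.39%, against 7.46%). Over all genes 2952 were called higher in EVP and 1907 in D, a split that became 1920 and 1983 after quantile normalization. With edgeR on whole reads 9 members passed between EVP and D (15.3%, against 15.1% of all genes), and after quantile normalization 10 did (16.9%, against 15.3%), so that under these settings, with both directions counted together, the members were called about as often as all genes. Between TA and D, 20 members passed, all higher in TA (33.9%, against 8.21% of all genes called higher in TA and 4.31% in D). Between EVP and TA, only Jup passed (1.69%, against 3.5% of all genes called and 1.94% called higher in TA). With the replicate number as a block beside the population, 6 members passed between EVP and TA (10.2%, against 4.94% of all genes), all higher in TA. Under the same block 34 passed between TA and D (57.6%, against 15.8%) and 22 between EVP and D (37.3%, against 22.3%).

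The median log2 difference of the 59 members was 1.56 for EVP against D, where all genes had 0.46, it was 3.34 for TA against D, where all genes had 0.24, and it was -1.52 for EVP against TA, where all genes had 0.09. With the members that had no read in a whole population set to a bound of 3 reads per library, the median for EVP against D became 1.83 and the others stayed at 3.34 and -1.52. Quantile normalization moved the medians of all genes to -0.05 for EVP against D and -0.10 for TA against D, and those of the members to 1.03 and 2.58. Without TA replicates 2 and 3, an alternative chosen after the values were seen, 18 of 51 members passed between EVP and D (35.3%, against 21.7% of all genes), 16 of them higher in EVP, 12 between TA and D, all higher in TA (23.5%, against 6.83%), and 0 between EVP and TA (against 1.76%), where 2 members had an unadjusted limma p under 0.05. On whole reads of all libraries edgeR called 22 members between TA and D (37.3%, against 6.83% of all genes) and DESeq2 38 (64.4%, against 11.3%), all higher in TA. Between EVP and TA they called 1 (1.69%, against 1.76%) and 7 (11.9%, against 4.19%), all higher in TA.

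Fewer members separated completely. All 5 EVP libraries lay above all 5 D libraries for Krt8, Krt19, Krt23 and Krt80 (6.78%, against 10.2% of all genes). All D libraries lay above all EVP libraries for Jup alone (1.69%, against 7.52%), and all TA libraries lay above all EVP libraries for Krt79 alone (1.69%, against 1.59%). All TA libraries lay above all D libraries for 8 members, Dsp, Pkp2, Pkp3, Ppl, Krt17, Krt19, Krt79 and Krt80 (13.6%, against 5.56%).

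**Figure D2:**
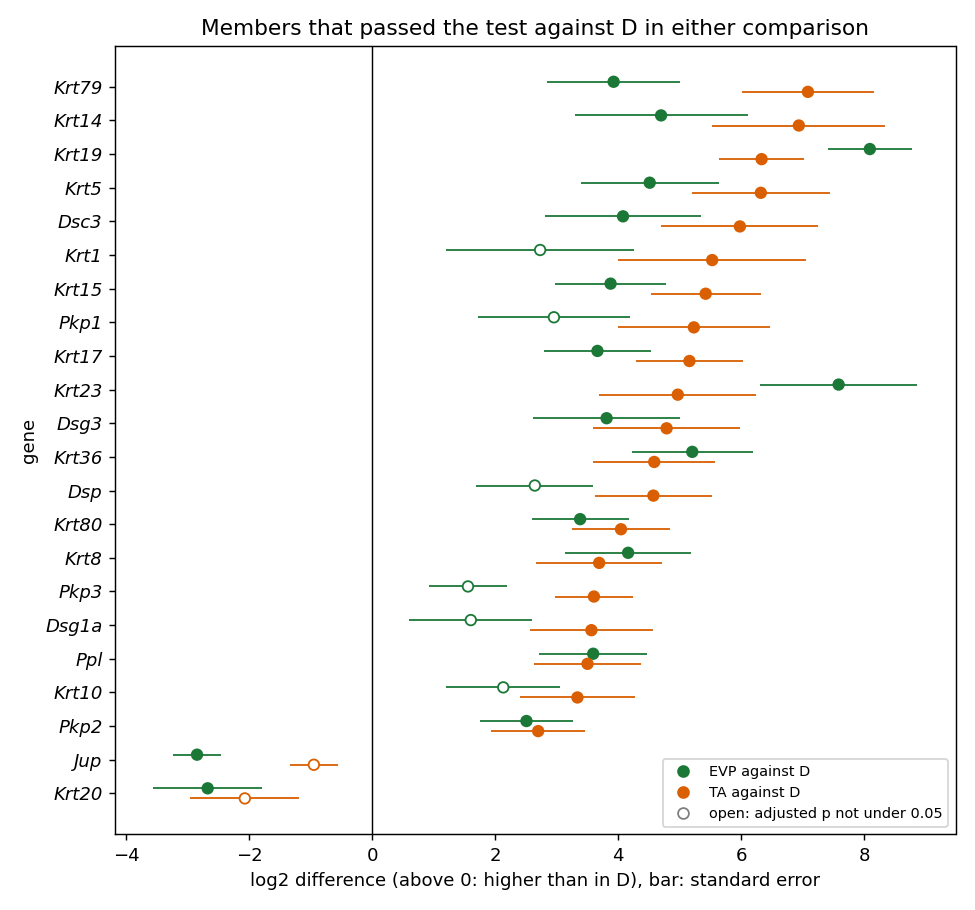
Log2 differences of EVP against D (green) and of TA against D (orange) with their standard errors, on the log2(normalized count + 1) scale, for the 22 members that passed in either comparison. Values above 0 are higher than in D, open points did not pass, and Jup and Krt20 alone lie below 0.

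Among the plaque proteins, plakoglobin alone was called higher in D. Jup (ENSMUSG00000001552, chr11:100368958-100397763, GRCm38) had 474, 759, 482, 778 and 445 normalized counts in EVP replicates 1 to 5, 4252, 3947, 2717, 1320.2 and 724 in TA and 3758, 3924, 3394, 5706 and 4059 in D. Every D library was above every EVP library, and TA spread from the EVP range (replicate 5) into the D range (replicates 1 and 2). The means were 588 ± 166 in EVP, 2592 ± 1558 in TA and 4168 ± 895 in D (SD, n = 5 each). The log2 difference was -2.84 for EVP against D (SE 0.39, limma adjusted p = 2.66e-05), -1.90 for EVP against TA (SE 0.39, adjusted p = 0.0112) and -0.95 for TA against D (SE 0.39, adjusted p = 0.134). The first kept its call without any 1 library (adjusted p at most 0.000145). The second was lost with array weights (adjusted p = 0.0752), without replicate 1 of every population (0.0683) and without TA replicates 2 and 3 (0.0868). TA against D passed without TA replicate 1 (adjusted p = 0.0439) and with array weights (0.00176).

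Desmoplakin (Dsp), which ties the plaque to keratin filaments, had 277, 489.9, 205, 213 and 44.9 normalized counts in EVP, 948, 3326, 1237, 291 and 191 in TA and 188, 88.2, 29.7, 12.8 and 3.02 in D. All TA libraries were above all D libraries, and replicate 5 was lowest in each population. TA exceeded D by 4.57 (log2, SE 0.95, limma adjusted p = 0.00341). EVP against D gave 2.65 (SE 0.95, adjusted p = 0.0633) and passed without EVP replicate 5 (adjusted p = 0.0301), without TA replicate 2 (0.0491) or without D replicate 1 (0.0156). This comparison also passed with array weights, with the replicate number as a block, without replicate 1 of every population and without TA replicates 2 and 3 (lowest adjusted p 0.00112). EVP against TA gave -1.93 (adjusted p = 0.353).

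The plakophilins, which bind desmoplakin and the cadherin tails, were also higher in TA than in D. Pkp3 had 42.1, 317, 142, 311 and 119.6 normalized counts in EVP, 412, 2202, 809, 449 and 269 in TA and 136, 22, 80.5, 36.8 and 33.2 in D (TA against D 3.61, SE 0.64, adjusted p = 0.000951, and 0.0708 after quantile normalization). For EVP against D it gave 1.56 (adjusted p = 0.109) and passed without EVP replicate 1 (0.0277) or without D replicate 1 (0.0444), the 2 libraries that lay nearest to the other population. It also passed with array weights and without replicate 1 of every population (lowest adjusted p 0.000337). Pkp1, the plakophilin of the upper epidermis, rose in TA against D (5.23, SE 1.24, adjusted p = 0.00831; 0.074 without TA replicates 2 and 3), and gave 2.96 for EVP against D (adjusted p = 0.118, and 0.0171 without D replicate 1). EVP against D also passed with array weights, with the replicate number as a block and without replicate 1 of every population.

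Pkp2, the plakophilin of heart and of many epithelia, had 576, 45.7, 85.9, 44 and 100.3 normalized counts in EVP, 217, 132, 113, 78.4 and 77.8 in TA and 65.9, 28.6, 10.2, 22.5 and 2.42 in D. EVP replicate 1 was far above the other EVP libraries, of which replicates 2 and 4 lay within the D range, and all TA libraries lay above all D libraries. It was higher in EVP than in D by 2.51 (log2, SE 0.76, adjusted p = 0.0267) and in TA than in D by 2.70 (SE 0.76, adjusted p = 0.0255). The first call was lost without EVP replicate 1 (adjusted p = 0.0671) or D replicate 3 (0.0642) or 5 (0.08), and the second without TA replicate 1 (0.0542) or 2 (0.0508) or D replicate 3 (0.0635) or 5 (0.073). Quantile normalization lost both (0.134 and 0.161), and the second was also lost with edgeR (0.103) and without TA replicates 2 and 3 (0.094).

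Periplakin and envoplakin are plakins of the cornified envelope and of desmosomes, and they differed. Ppl had 291, 227, 155, 334 and 33.9 normalized counts in EVP, 164, 555, 145, 83.1 and 77.8 in TA and 46.7, 58.8, 0.782, 8.26 and 9.07 in D. It was higher in EVP (3.60, SE 0.87, adjusted p = 0.00616) and in TA (3.50, SE 0.87, adjusted p = 0.012) than in D, and EVP and TA differed by 0.09 (SE 0.87, adjusted p = 0.996). Without TA replicates 2 and 3 the call between TA and D was lost (0.0836). Evpl had 23.1 ± 7.35 in EVP, 117 ± 138 in TA and 63.2 ± 58.3 in D (SD, n = 5 each), and none of its comparisons passed (EVP against D -0.83, adjusted p = 0.612; TA against D 0.76, adjusted p = 0.669).

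Of the 9 desmosomal cadherins, 8 were tested. In the main fit Dsc3 and Dsg3, the desmocollin and desmoglein of the basal epidermis, passed in both comparisons with D, and Dsg1a in TA against D only. Dsc3 had 372, 635, 353, 392 and 44.9 normalized counts in EVP, 1727, 5519, 886, 369 and 350.0 in TA and 357, 34.3, 0, 38.3 and 1.21 in D (EVP against D 4.08, SE 1.27, adjusted p = 0.0313; TA against D 5.98, SE 1.27, adjusted p = 0.00404). D replicate 1 lay among the EVP libraries and the other D libraries below all of them. The call between EVP and D was lost without EVP replicate 1 (0.06), 2 (0.0779), 3 (0.0622) or 4 (0.0653) or D replicate 3 (0.0909) or 5 (0.0969), and with edgeR (adjusted p = 0.274), DESeq2 (0.253), quantile normalization (0.0648) or no minimum mean (0.0506).

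Dsg3 had 144, 60.1, 58.9, 44.8 and 2.07 normalized counts in EVP, 43.1, 359, 247, 19.6 and 26.2 in TA and 32.9, 0, 0, 3 and 0 in D, where 3 libraries had no read. Its differences were 3.81 for EVP against D (SE 1.19, adjusted p = 0.0309) and 4.79 for TA against D (SE 1.19, adjusted p = 0.0117). The call between EVP and D was lost without EVP replicate 1 (0.0755), 2 (0.0714), 3 (0.0691) or 4 (0.0637) or D replicate 2 (0.0801), 3 (0.0778) or 5 (0.0822), and with edgeR (0.186), DESeq2 (0.0817), a pseudocount of 8 (0.0889) or quantile normalization (0.0924). That between TA and D was lost with edgeR (0.0958) and without TA replicates 2 and 3 (0.123). Dsg1a, a desmoglein of the upper epidermis, exceeded D in TA by 3.57 (SE 1.00, adjusted p = 0.0248), which was lost without TA replicate 1 (0.0536) or 2 (0.069) or D replicate 3 (0.064), 4 (0.0658) or 5 (0.0683), without both TA replicates 2 and 3 (0.183) and after quantile normalization (0.0777). Between EVP and D it gave 1.61 (adjusted p = 0.352) and passed only with the replicate number as a block (0.0421).

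The remaining cadherins passed nowhere. Dsg2, the desmoglein of simple epithelia, had 55.3 ± 86.1 normalized counts in EVP, 85.6 ± 102 in TA and 20.8 ± 27.4 in D, and Dsc2 had 72.6 ± 82.8, 138 ± 133 and 13.4 ± 22.6 (SD, n = 5 each). Dsg4, a desmoglein of the hair follicle, had 246 normalized counts in EVP replicate 1, 36.7 in D replicate 2, 11 in D replicate 1 and at most 3.13 elsewhere. Dsc1 (123) and Dsg1c (66.7) were likewise highest in EVP replicate 1, while Dsg1b was highest in TA replicate 2 (166). Dsg1a, Dsg1b and Dsg1c are related copies, with 29.0%, 39.3% and 19.7% of their 76-base windows shared with another gene. Reads from these windows could be lost or counted for another copy, so their single values are uncertain.

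The keratins of the epidermis and the outer root sheath held the 5 highest means of TA per kilobase of exon. Krt14, which pairs with Krt5 in basal keratinocytes, had 730.3, 3185, 502, 519 and 446 normalized counts in EVP, 4426, 39702, 4419, 350.2 and 2346 in TA and 741, 138, 24.2, 0 and 7.86 in D. Krt5 had 376, 1235, 372, 532 and 189 in EVP, 2068, 12745, 1388, 232 and 1082 in TA and 289.7, 48.2, 3.91, 17.3 and 1.21 in D. Both were highest in TA replicate 2, and D replicate 1 lay within the EVP range, whereas the other D libraries lay below every EVP library. Per kilobase of exon, the means of Krt14 were 612 in EVP, 5829.7 in TA and 104 in D, and those of Krt5 were 246, 1594 and 32.8 normalized counts.

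In this group of 13 keratins, 6 were higher in EVP than in D (46.2%, against 11.6% of all genes) and 8 in TA than in D (61.5%, against 8.21%). Between EVP and TA, 0 passed in the main limma fit or with edgeR (against 3.5% and 2.6% of all genes), and 2 had an unadjusted limma p under 0.05. DESeq2 called 2 of the 13 higher in TA than in EVP (against 4.19% of all genes). Krt14 differed by 4.70 for EVP against D (SE 1.41, adjusted p = 0.0247) and by 6.94 for TA against D (SE 1.41, adjusted p = 0.00285), and Krt5 by 4.51 (adjusted p = 0.00726) and 6.32 (adjusted p = 0.000981). The call of Krt14 between EVP and D was lost without EVP replicate 2 (0.0704) or D replicate 4 (0.0702) or 5 (0.0685) and with edgeR (0.237) or DESeq2 (0.179), and that of Krt5 with edgeR (0.113).

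Krt15, a keratin of basal and follicle bulge cells, and Krt17, a keratin of the outer root sheath and of stressed epidermis, passed in both comparisons with D. Krt15 had 1008, 2934, 932, 1279 and 639.6 normalized counts in EVP, 4989.8, 12189, 3627, 797 and 2727 in TA and 1041, 126, 59.4, 15 and 24.8 in D. Krt17 had 305, 1681, 1171, 1879 and 89.2 in EVP, 2227, 9788, 1923, 939 and 462 in TA and 136, 87.4, 15.6, 43.6 and 33.8 in D. D replicate 1 of Krt15 reached the EVP range, and only EVP replicate 5 of Krt17 fell into the D range. The differences for Krt15 were 3.88 against D in EVP (adjusted p = 0.00426; edgeR 0.113, DESeq2 0.0523) and 5.42 in TA (adjusted p = 0.000523), and for Krt17 3.66 (adjusted p = 0.00502) and 5.16 (adjusted p = 0.000598). Leaving out any 1 library changed none of these 4 limma calls.

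Krt79, a keratin of the follicle canal, was the 1 member with every TA library above every EVP library, with 169, 197, 12.3, 36.8 and 74 normalized counts in EVP, 1449.5, 1852, 277, 396 and 241 in TA and 56.3, 0.816, 0, 0 and 13.9 in D. Every TA library was also above every D library. It exceeded D by 3.93 in EVP (adjusted p = 0.0147; edgeR 0.119, DESeq2 0.0571, quantile normalization 0.066) and by 7.09 in TA (adjusted p = 0.000248), while EVP against TA gave -3.16 and did not pass (SE 1.08, adjusted p = 0.133). Krt80, a keratin of many differentiating epithelia, was at 129 ± 33.7 in EVP, 210.4 ± 76 in TA and 23.3 ± 25.2 in D (SD, n = 5 each), and was above D by 3.38 (adjusted p = 0.00462, and 0.0514 after quantile normalization) and 4.05 (adjusted p = 0.00215).

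Krt1 and Krt10, the pair of the suprabasal epidermis, passed in TA against D only in the main fit. Krt10 had 716, 719, 214, 475 and 281 normalized counts in EVP, 3807, 8676, 459, 165 and 385 in TA and 523, 148, 71.1, 33.8 and 45.9 in D, and Krt1 had 193, 304, 35.2, 3.2 and 58.8 in EVP, 1629, 4289.9, 302, 29.8 and 133 in TA and 97.5, 58.8, 0, 0 and 6.04 in D. Replicates 1 and 2 were the highest of each population for both genes. TA exceeded D by 3.34 for Krt10 (adjusted p = 0.0238) and 5.53 for Krt1 (adjusted p = 0.0228). Without TA replicate 1 or 2 or D replicate 3, 4 or 5 the calls were lost, with adjusted p from 0.0552 to 0.0721 for Krt10 and from 0.0502 to 0.0713 for Krt1. Without both TA replicates 2 and 3 they were 0.0931 and 0.136, and Krt10 was also lost after quantile normalization (0.051) and with the libraries of TA and D alone (0.0629). EVP against D gave 2.13 for Krt10 (adjusted p = 0.138, and 0.0428 without D replicate 1) and 2.73 for Krt1 (adjusted p = 0.28). With the replicate number as a block, Krt1 passed between EVP and D (limma adjusted p = 0.00482). Krt10 passed there too, and also with array weights and with the libraries of EVP and D alone (lowest adjusted p 0.00273).

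The other epidermal keratins passed in no comparison. Krt77 followed Krt1, with 2225 and 3805 normalized counts in TA replicates 1 and 2 and at most 516 elsewhere. Krt16, a keratin of wounded and stressed epidermis, was at 665 in TA replicate 2, 319 in TA replicate 3 and 64 in EVP replicate 2 and at or below 6.54 elsewhere, and it shares 28.7% of its 76-base windows with another gene. Krt75, of the companion layer of the follicle, reached 558 and 446 in TA replicates 2 and 3, Krt78 reached 281 in TA replicate 1, and Krt2, of the upper epidermis, stayed at or below 53.6.

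Most markers of keratinocytes that are not members moved with these genes. The 22 such markers summed to 4375, 10074, 4469.9, 4024 and 2491 normalized counts in EVP replicates 1 to 5, 17639, 60594, 13338, 3451 and 4009 in TA and 2415, 870.2, 441, 228 and 154 in D, and none of them was at 0 in all libraries of a population. Of the 22, 8 were higher in EVP than in D (36.4%, against 11.6% of all genes) and 15 in TA than in D (68.2%, against 8.21%). Between EVP and TA, 0 passed in the main limma fit or with edgeR (against 3.5% and 2.6% of all genes), and 6 had an unadjusted limma p under 0.05. DESeq2 called 5 of these markers higher in TA than in EVP (against 4.19% of all genes). Their part in the results on the members was not tested. In these bulk libraries, fewer cells of a type and less RNA per cell cannot be told apart.

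**Figure D3:**
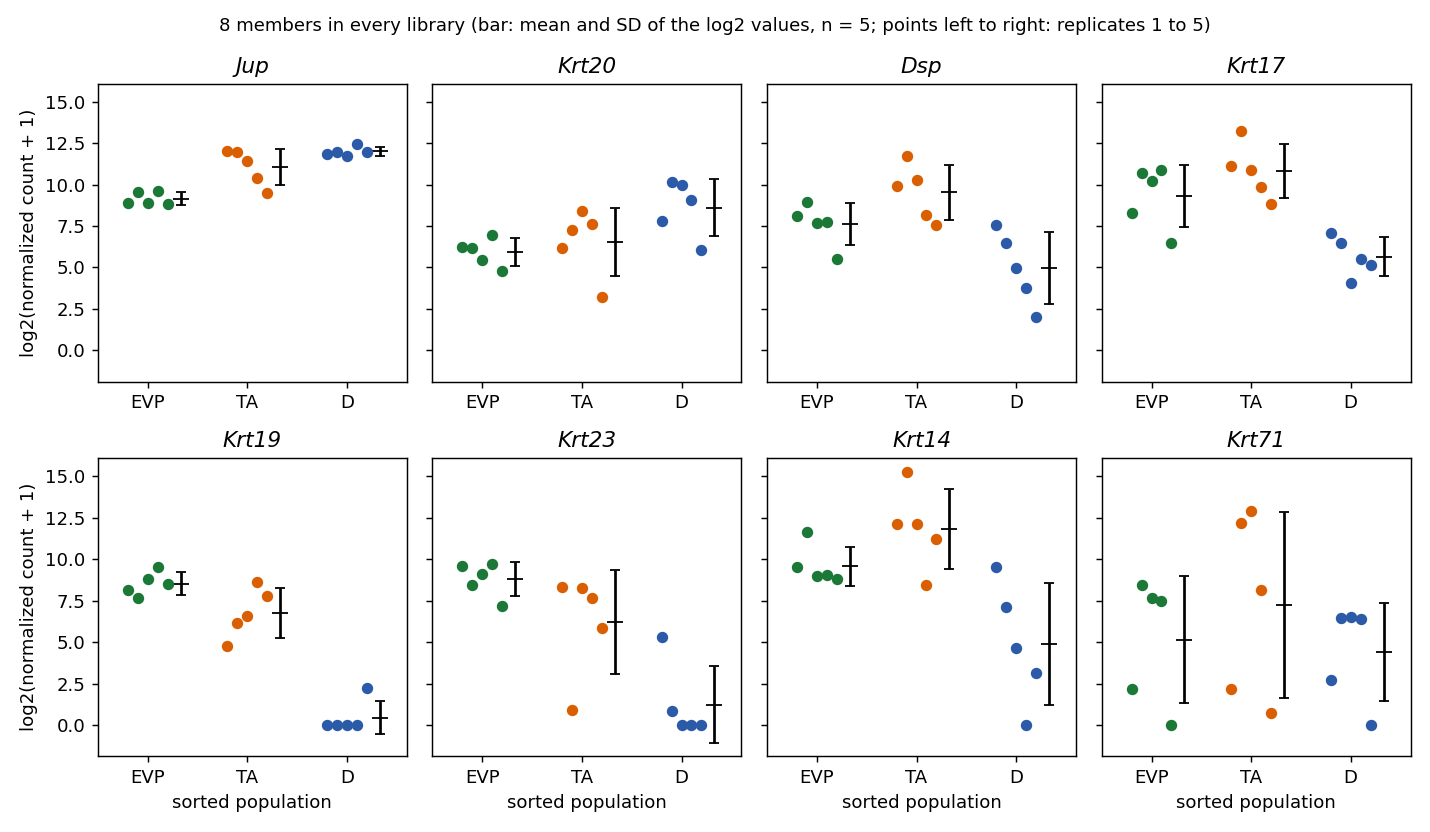
Log2(normalized count + 1) of 8 members in each library, by population (points left to right are replicates 1 to 5, the bar is the mean and SD of the log2 values, n = 5). Jup rises from EVP to D, Krt19 and Krt23 are near 0 in most D libraries, and Krt71 splits every population into high replicates 2 to 4 and low replicates 1 and 5.

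Of the 8 keratins of the inner root sheath, the layer that molds the growing hair, 7 were tested, and 5 of these passed a test of the replicate number. In the main limma fit, which had no term for the replicate number, 0 passed between populations. The sizes of the effects were not compared. The 8 genes are neighbours on chromosome 11 (Krt25 to Krt28) and on chromosome 15 (Krt71 to Krt74). The last 60 bases before the RefSeq start (GRCm38.p6) of 5 of them are shown because these 5 genes passed the test of the replicate number. The capitals mark TATAAA, the core of a TATA box, searched on both strands.
Krt25, minus strand, chr11:99322952-99323011: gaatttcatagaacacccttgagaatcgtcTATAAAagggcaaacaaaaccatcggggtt
Krt27, minus strand, chr11:99351119-99351178: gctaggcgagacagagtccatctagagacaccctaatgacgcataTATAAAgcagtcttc
Krt28, minus strand, chr11:99374904-99374963: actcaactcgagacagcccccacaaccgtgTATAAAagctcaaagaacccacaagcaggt
Krt71, minus strand, chr15:101743098-101743157: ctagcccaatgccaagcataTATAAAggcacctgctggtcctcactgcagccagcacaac
Krt73, minus strand, chr15:101802361-101802420: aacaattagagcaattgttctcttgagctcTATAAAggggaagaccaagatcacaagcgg
Jup, minus strand, chr11:100397791-100397850: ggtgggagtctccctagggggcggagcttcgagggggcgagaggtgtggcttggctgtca

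The motif began 30 bases before the start in Krt25, Krt28 and Krt73, 40 bases before it in Krt71 and 15 bases before it in Krt27. These letters stood in the same 60-base window of 14 of the 36 members with a RefSeq promoter and of 3.92% of all 32851 promoters. Neighbouring keratins are related copies, so the promoters are not independent of each other. The window of Jup, shown for contrast as the member that was highest in D, does not hold these letters, which says nothing on the factors that act there.

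Krt71 had 3.51, 353, 200.4, 177 and 0 normalized counts in EVP replicates 1 to 5, 3.45, 4615, 7784, 279 and 0.623 in TA and 5.49, 85.7, 91.5, 82.6 and 0 in D. In each population replicates 2, 3 and 4 were at or above 82.6, and replicates 1 and 5 at or below 5.49. Krt25 had 10.5, 77.1, 129, 80.7 and 0 in EVP, 39.6, 1626, 2386, 107 and 0 in TA and 1.37, 39.2, 61.8, 12.8 and 0 in D, and Krt28 had 0, 81, 136, 173 and 0, 34.5, 1356, 527, 237 and 0.623 and 1.37, 64.5, 26.6, 47.3 and 0. Krt73 and Krt27, named like Krt28 after their values were seen, were also highest in TA replicates 2 and 3, with values in TA replicates 1 to 5 of 70.7, 1787, 1359, 143 and 0 for Krt73 and 91.4, 542, 2087, 47.8 and 0 for Krt27.

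Summed over the 8 genes, the inner root sheath keratins stood at 87.8, 639, 874, 481 and 0 normalized counts in EVP replicates 1 to 5, 289.6, 9969.6, 14236, 837 and 1.25 in TA and 32.9, 359, 264, 156 and 0 in D. Replicate 5 had no read of any of them in EVP and in D and 1 read each of Krt71 and Krt28 in TA, although its libraries were the deepest of their populations, with between 22963978 and 26513073 reads on genes. A count of 0 there allows up to 2.07 normalized counts per gene in EVP and 1.81 in D. The ratio of Krt71 to Krt14 was 0.399 in EVP, 1.76 in TA and 3.77 in D in replicate 3, and 0.00481, 7.79e-04 and 0.00741 in replicate 1. In replicates 1 to 4 the sum was highest in TA, and in replicate 5 the counts are too low to order the populations.

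Of the 7 inner root sheath keratins tested, 0 passed between populations in the main limma fit or with edgeR. DESeq2 on whole reads called 1 higher in EVP than in D, where it called 13.1% of all genes higher in EVP. It called 4 higher in TA than in D, where 11.3% of all genes were called higher in TA. An unadjusted p under 0.05 in the main limma fit was found for 1 in EVP against D, 2 in TA against D and 0 in EVP against TA. With the replicate number as a block, 33 of 59 members were higher in TA than in D. How many of these were inner root sheath keratins was not counted. Krt71 gave 0.74 for EVP against D (SE 2.30, adjusted p = 0.873), -2.06 for EVP against TA (SE 2.30, adjusted p = 0.816) and 2.81 for TA against D (SE 2.30, adjusted p = 0.554). The spread behind these errors was that between replicate numbers within a population.

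**Figure D4:**
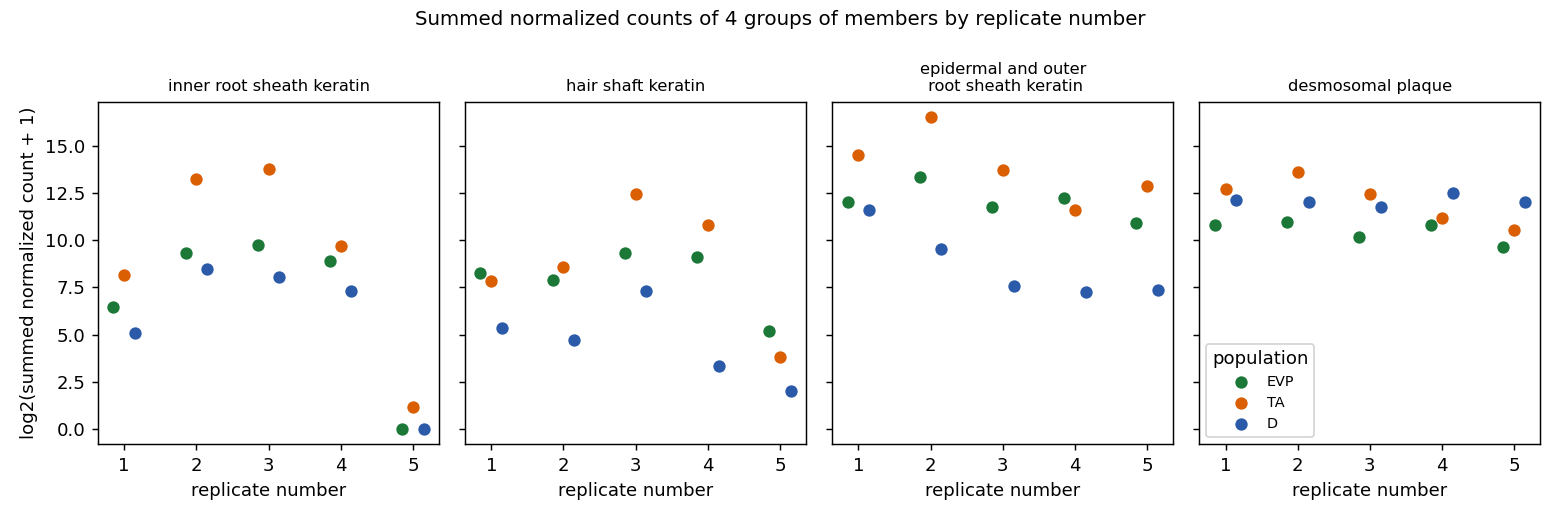
Log2(summed normalized count + 1) of 4 groups of members by replicate number, with 1 point per population. The inner root sheath keratins are near 0 in replicate 5 of all 3 populations and high in replicates 2 to 4, while the plaque genes vary less with the number.

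A moderated F test of the replicate number beside the population, added after these values were seen and fitted with limma over all 25549 genes, called 17 of 59 members (28.8%, against 19.8% of all genes). Among them were 5 of the 7 inner root sheath keratins tested (Krt25, Krt27, Krt28, Krt71 and Krt73, adjusted p from 0.00116 to 0.0319), and 5 of 13 epidermal keratins. Since the libraries of replicate 1 had a read on the largest share of olfactory receptor genes, the test was repeated without them. It then called 37 of 19494 genes (0.19%), of which 6 were members (10.7% of 56): Krt28 (adjusted p = 0.0179), Krt71 (0.0237), Dsp (0.0321), Krt25 (0.0403), the hair shaft keratin Krt35 (0.0403) and Krt1 (0.0442). The other genes called included hemoglobin genes (Hbb-bs, Hba-a1), genes of MHC class II (Cd74, H2-Aa), the keratinocyte gene Sfn and several genes named Gm with a number. Of these last, Gm10800 had the lowest adjusted p of all genes called (0.00449). In replicates 2 to 5 it had 37069.9, 1849, 8.79 and 2.77 normalized counts in EVP and 41951, 102901, 6.27 and 51.1 in TA. In D it had 3876, 3329, 0.751 and 0.604. In the left-out replicate 1 it had 2008360 normalized counts in EVP, 1451990 in TA and 1452860 in D. The normalized totals of these 3 libraries were 18940000, 16706200 and 17101900. Without EVP replicate 1 alone, 909 of 21696 genes and 10 of 57 members were called. The pattern was noticed and tested in the same libraries, and what the libraries of 1 number have in common was not tested.

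The other 3 inner root sheath keratins were scarce. Krt72 had 90.4 normalized counts in TA replicate 3 and 53.2 in EVP replicate 3 and no read in D, Krt26 had at most 42.1 (EVP replicate 1), and Krt74, which was below the mean required for the test, had at most 20.7 (TA replicate 1). Trichohyalin (Tchh), a protein of the inner root sheath that is not a member, had 14, 187, 523, 169 and 30.4 normalized counts in EVP, 53.4, 4891, 5336, 320.5 and 6.23 in TA and 11, 0.816, 91.5, 11.3 and 1.21 in D, and was highest in TA replicates 2 and 3 like Krt71.

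The 13 hair shaft keratins, the keratins of the hair itself, were also highest in sum in TA replicate 3. Their sum was 312, 236, 650.4, 553 and 36 normalized counts in EVP, 233, 389, 5585, 1801 and 13.1 in TA and 39.8, 25.3, 159, 9.01 and 3.02 in D. TA replicate 4 came next, whereas TA replicate 2, which led for the epidermal keratins, was lower than both. Krt31 had 702 and 407 in TA replicates 3 and 4, 142 and 98.3 in EVP replicates 3 and 4 and at most 12.5 elsewhere, and Krt83 had 982, 643, 166 and 121 in the same 4 libraries and at most 6.53 elsewhere. Krt35 reached 1070.3 in TA replicate 3 and 106 in D replicate 3, which were the highest of their populations, as was EVP replicate 3 at 223.

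Of these 13, only Krt36 passed. It had 126, 78.4, 71.2, 174 and 30.4 normalized counts in EVP, 65.5, 160.0, 146, 29.8 and 8.72 in TA and 0, 0.816, 31.3, 0 and 0 in D, where 3 libraries had no read and replicate 3 reached the EVP range. It was higher in EVP than in D by 5.21 (SE 0.99, adjusted p = 0.000796; edgeR 0.0864) and in TA than in D by 4.59 (SE 0.99, adjusted p = 0.00436; edgeR 0.131, and 0.0534 without TA replicates 2 and 3). Unlike the other hair shaft keratins, it was present in all EVP and TA libraries.

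The others had their highest value in TA replicate 3, at 781 normalized counts for Krt32, 712 for Krt87, 376 for Krt81, 289 for Krt82, 204 for Krt84, 117 for Krt34, 90.4 for Krt40 and 40.2 for Krt86, except for Krt39 (94.8 in EVP replicate 1, 73.7 in TA replicate 3). Krt39, Krt40 and Krt81 had no read in any D library. Krt81, Krt86, Krt34, Krt87, Krt31 and Krt83 share between 12.3% and 35.2% of their 76-base windows with another gene, and 14.5% of the exons of Krt32 overlap an antisense gene, so the single values of these genes are uncertain.

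The 7 letters CTTTGAA, in either direction, known from sites of LEF1 and TCF factors, were found in the 300-base promoters (250 bases before to 50 after the start) of 5 of 36 members and of 5.14% of all promoters. They are shown in capitals for the 4 hair shaft keratins among them, since LEF1 is known to act in the hair cortex; the other was Krt28. Up to 12 bases are given on either side, fewer in Krt31 and Krt32, where the table's window ends, and 1 of the 2 matches in Krt34 is shown. A match of letters does not show binding.
Krt31, minus strand, chr11:100050777-100050801: tgacttCTTTGAAgggctactgcag
Krt32, minus strand, chr11:100088498-100088519: gccCTTTGAAgatgtgtcttga
Krt34, minus strand, chr11:100041669-100041699: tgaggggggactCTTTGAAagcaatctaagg
Krt39, minus strand, chr11:99521339-99521369: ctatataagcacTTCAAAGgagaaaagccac

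Simple epithelial keratins, which line glands and ducts as pairs of Krt8 or Krt7 with Krt18, Krt19 or Krt20, held the member with the widest difference between EVP and D. Krt19 (ENSMUSG00000020911, chr11:100140810-100148665) had 277, 204, 451, 739 and 367 normalized counts in EVP, 25.9, 69.4, 93.8, 395 and 221 in TA and 0, 0, 0, 0 and 3.63 in D. Of the D libraries, 4 had no read and replicate 5 had 6, so D lay below every EVP and TA library. The log2 difference was 8.09 for EVP against D (SE 0.69, adjusted p = 1.57e-07) and 6.33 for TA against D (SE 0.69, adjusted p = 6.88e-06), and both calls held under each alternative run (15 without 1 library and 14 others). EVP against TA gave 1.76 (adjusted p = 0.199). Unlike most members, Krt19 was not highest in TA replicates 2 and 3: its order in TA put replicates 4 and 5 first.

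Krt20, best known from the gut, the urothelium and Merkel cells, was higher in D. It had 73.7, 70.5, 43.4, 125 and 27 normalized counts in EVP, 72.4, 152, 342, 194 and 8.1 in TA and 222, 1127, 1011, 530.4 and 64.1 in D. D replicates 1 to 4 lay above all EVP libraries and D replicate 5 within them. EVP against D gave -2.67 (SE 0.88, adjusted p = 0.0424), close to the threshold: the call was lost without EVP replicate 1 (0.0595), 2 (0.0682), 3 (0.0856) or 5 (0.101) or D replicate 2 (0.121), 3 (0.114) or 4 (0.0918), without replicate 1 of every population (0.0686), with array weights (0.0645) and with a minimum mean of 1 (0.0529) or none (0.0693). TA against D gave -2.07 (adjusted p = 0.157) and passed only with the replicate number as a block (0.0183). Its 60 bases before the start hold TATAAA 29 bases upstream, as the other member called higher in D, Jup, does not:
Krt20, minus strand, chr11:99438154-99438213: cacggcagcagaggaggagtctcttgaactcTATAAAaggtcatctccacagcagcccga

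Krt8, Krt18 and Krt7 were low. Krt8 had 10.5, 9.14, 31.9, 62.3 and 30.4 normalized counts in EVP, 36.2, 0.879, 122, 41.5 and 3.11 in TA and 1.37, 0, 0, 0.751 and 0 in D, where all libraries together held 2 reads. It was higher in EVP than in D by 4.16 (SE 1.03, adjusted p = 0.00689) and in TA than in D by 3.69 (SE 1.03, adjusted p = 0.0234), and the second was lost without TA replicate 3 (0.0633) or 4 (0.0626) or D replicate 2 (0.0539), 3 (0.0526) or 5 (0.0554). Quantile normalization lost both (0.121 and 0.163), and the second was also lost with a pseudocount of 8 (0.0714) and with the libraries of TA and D alone (0.0555). A processed copy shares 21.8% of its 76-base windows. Krt18 had 39.3 ± 35.4, 118 ± 209 and 5.13 ± 5.25 and Krt7 had 26.8 ± 27.1, 37.1 ± 35.2 and 4.58 ± 9.27 in EVP, TA and D (SD, n = 5 each). Neither passed (EVP against D adjusted p = 0.483 for Krt18 and 0.0589 for Krt7).

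Of the 10 other keratins, only Krt23 passed. It had 772, 341, 563, 854 and 146 normalized counts in EVP, 321, 0.879, 313, 197 and 56.7 in TA and 38.4, 0.816, 0, 0 and 0 in D. In D only replicates 1 and 2 had a read, every EVP library was above every D library, and TA replicate 2, the highest library for 25 members, had 1 read. The log2 difference was 7.59 for EVP against D (SE 1.28, adjusted p = 0.000258) and 4.97 for TA against D (SE 1.28, adjusted p = 0.0146, and 0.0541 with the libraries of TA and D alone).

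Krt222, a keratin-like gene, had 26.5 ± 28.2 in EVP, 53.9 ± 82.8 in TA and 43.1 ± 25.5 in D (SD, n = 5 each; EVP against D -1.14, adjusted p = 0.597). Krt4, of mucosal epithelia, reached 179 in TA replicate 4, Krt24 142 and Krt90 125 in TA replicate 2, and Krt12, the cornea keratin, at most 31 (TA replicate 1), where 54.4% of its exons overlap an antisense gene. Krt13, Krt42, Krt76 and Krt88 were too low for the test, with at most 31 normalized counts in any library. The 6 untested members were these 4, Dsg1c and Krt74. In D, 13 members had at most 3 reads in every library, and 10 members had more than 3 reads in all 15 libraries.

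A further 4 keratins, with a letter suffix, fall outside the name rule. Krt6a reached 437 normalized counts in TA replicate 2 and 196 in EVP replicate 2, Krt33a 1439.8 in TA replicate 3 and 757 in TA replicate 4, and Krt33b 651 in TA replicate 3, while Krt6b was at most 91.4. In the main limma fit 0 of them passed in any comparison (2 at an unadjusted p under 0.05, both in TA against D). As higher in TA than in D, edgeR called 2 of them (against 6.83% of all genes) and DESeq2 3 (against 11.3%). DESeq2 also called 1 higher in EVP than in D (against 13.1%).

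The partner genes of keratins and desmosomes, a list of 36 genes with these 4, moved in both directions. Between EVP and D, 10 were higher in EVP (27.8%, against 11.6% of all genes) and 10 in D (27.8%, against 7.46%). Between TA and D, 13 were higher in TA (36.1%, against 8.21%) and 7 in D (19.4%, against 4.31%). Between EVP and TA, 1 was higher in EVP (Klf4) and 5 in TA (Cdh5, Ctnna1, Ctnnb1, Itga6 and Nes), where 1.56% and 1.94% of all genes were called. The median log2 difference was 1.78 for EVP against D (all genes 0.46), 2.47 for TA against D (0.24) and -0.86 for EVP against TA (0.09).

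Of the 10 junction genes in this list, 4 were higher in EVP than in D (40%, against 11.6% of all genes) and 5 in D than in EVP (50%, against 7.46%). Cdsn, a corneodesmosome gene, did not pass (2.92, adjusted p = 0.101). Cdh1 (E-cadherin) had 112 ± 55.1 in EVP and 19.1 ± 38.6 normalized counts in D (SD, n = 5; log2 4.61, adjusted p = 0.0024), and Cdh3 (P-cadherin) 154 ± 83.5 and 2.82 ± 3.75 (5.57, adjusted p = 6.25e-05). Cdh2 (N-cadherin), a cadherin of mesenchymal and neural cells, was higher in EVP by 2.09 (adjusted p = 0.0187). Perp, a desmosome-linked membrane protein of the epidermis, was also higher in EVP (2.49, adjusted p = 0.0255). Cdh5 (VE-cadherin) had 72.3 ± 67.9 in EVP, 2781 ± 2866 in TA and 9818 ± 2251 in D (-7.54 for EVP against D, adjusted p = 1.61e-06). The catenins of adherens junctions were higher in D than in EVP by less: Ctnna1 gave -1.66, Ctnnb1 -1.62 and Ctnnd1 -1.12, against -2.84 for Jup, and Pkp4, the relative of the plakophilins at adherens junctions, gave -1.95 (adjusted p at most 0.00357 for each).

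Among other filaments and their linkers, vimentin (Vim) did not pass, at 29193 ± 5078 in EVP, 24118 ± 8318 in TA and 29623 ± 7538 in D (SD, n = 5 each; EVP against D -0.00, SE 0.23, adjusted p = 0.997). Nestin (Nes) was higher in D than in EVP (-5.00, adjusted p = 1.69e-06), as was integrin alpha 6 (Itga6, -4.80, adjusted p = 1.87e-09). Col17a1, the collagen of the epidermal hemidesmosome, was higher in TA than in D (5.22, adjusted p = 0.0022).

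Of 12 epithelial transcription and splicing regulators, 6 were higher in EVP than in D (50%, against 11.6% of all genes) and 7 in TA than in D (58.3%, against 8.21%). Trp63, the regulator of stratified epithelia, differed by 2.93 (adjusted p = 0.0105) and 3.62 (adjusted p = 0.0039), and Esrp1, a splicing factor of epithelia, by 4.28 (adjusted p = 0.00179) and 5.17 (adjusted p = 0.00075). Klf4, which acts in the upper epidermis and also in other cell types, had 1527, 2576, 2066, 1835 and 704 normalized counts in EVP, 302, 1142, 285, 513 and 248 in TA and 124, 315, 254, 207 and 136 in D. It was higher in EVP than in TA by 1.94 (SE 0.42, adjusted p = 0.0162), against the direction of most members.

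The genes most like the leading members over the 15 libraries were found by Pearson's r of log2(normalized count + 1) among 25549 genes, as a description, since these libraries share populations and replicate numbers. For Krt14 they were Krt15 (r = 0.98), Anxa8 (0.968), Ccl27a (0.954), Tmprss13 (0.951) and Serpinb5 (0.95). For Jup they were Itga3 (r = 0.971), Nedd9 (0.969), Id1 (0.969), Tbxa2r (0.963) and Smagp (0.961), none of them a member.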

How the data were processed

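The authors prepared the libraries from sorted cells with a modified Smart-Seq2 protocol (oligo-dT priming, 12 cycles of preamplification and 12 of library amplification), aligned reads with STAR 2.5.3a to GRCm38 (per the submitters' processing notes), counted them per gene and normalized with DESeq2 1.10.1. The deposited normalized counts are a signal, with each gene's count divided by the size factor of its library. Whether counting used strand is not given in the sources used here. Tables with the authors' own comparisons (base means, fold changes, statistics, p-values) were not used.

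Each value was divided by the smallest value above 0 of its library, and 100% of the results were whole (within 0.01), so whole reads were recovered. Members and gene lists were chosen with earlier results of these data known. Log2(normalized count + 1) of the 25549 genes averaging 5 or more was fitted with limma 3.58.1 in R 4.3.3 (1 coefficient per population, all 15 libraries, trend, two-sided), with Benjamini-Hochberg adjustment over all genes and a threshold of 0.05. Checks on simulated data with known changes recovered their sign and size. They covered EVP against D only, changed only genes with a mean of at least 50, and held no effect of the replicate number. The checks therefore say nothing on members at low counts or on those that vary with the replicate number. Alternatives were other pseudocounts, minima, scalings, array weights, a replicate block, edgeR 4.0.16 and DESeq2 1.42.0 on whole reads, and leaving out libraries. Named in the text are members past the threshold, the 12 with the highest mean, 8 of those with over 50% of their sum in 1 library, the desmosome genes, and commonly studied keratins; others were chosen after their values were seen. Exon lengths, overlaps and shared 76-base windows came from GENCODE vM21, which gave 46 of the 65 members the same coordinates as the deposited table. Promoters came from RefSeq (GRCm38.p6) for 36 of the 65 members. A count of 0 allows 3 reads, and reads amplified by PCR are not independent molecules.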

Additional observations from a re-analysis of the deposited data

Results flagged for a closer look

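Within a population of 5 libraries, the gap between an extreme library and its nearest neighbour was compared with Dixon's critical value of 0.71 on the log2 scale for the 59 members tested. Of 177 such groups, those with no read in any library could not be compared (Krt40 in EVP and D, and Krt39, Krt72 and Krt81 in D). Of the rest, 21 passed. In 11 of these the other 4 libraries all had no read, so that any read passes and the rate of about 1 in 20 that chance gives among measured values does not apply. Most lay in D replicate 1 or EVP replicate 1. The 13 members whose highest D value stood apart in D replicate 1 were Krt23 (38.4 normalized counts, next 0.816), Dsg1b (41.2), Krt2 (20.6), Krt4 (17.8), Krt12 (13.7), Krt84 (12.4), Krt90 (6.86), Krt24 (5.49), Krt86 (4.12), Krt83, Krt82 and Krt34 (2.75 each, 2 reads) and Krt26 (1.37, 1 read). In EVP replicate 1 the same held for Dsg4 (246 normalized counts, next 0), Krt39 (94.8) and Krt34 (24.6).

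The remaining 5 lay in other libraries. Krt14 was high in EVP replicate 2 (3185 normalized counts, next 730.3), Dsc3 was low in EVP replicate 5 (44.9, next 353), Krt72 was high in EVP replicate 3 (53.2, next 0), Krt36 was high in D replicate 3 (31.3, next 0.816), and Krt19 was at 3.63 in D replicate 5 and at 0 in the other D libraries. The cause was not tested in any of these cases.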

How the results depend on the processing

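For 45 differences of members called in the main fit, 1305 alternative values were computed: 1184 kept their direction and side of the threshold, 97 lost and 24 gained the call, and 0 reversed. The 45 are the differences from D of members called against D in either comparison, and that of Jup between EVP and TA. Since they were picked by the main fit of the same libraries, the counts do not describe the members that passed nowhere. Where calls changed, the cause was not tested beyond the smaller number of libraries or other construction of the alternative. Members called between EVP and D numbered 10 with quantile normalization (16.9%, against 15.3% of all genes) and 9 with edgeR (15.3%, against 15.1%), against 16 (27.1%, against 19.0%), and 12 to 20 when 1 library was left out. Between EVP and TA they numbered 2 of 59 with a pseudocount of 8 (against 1166 of 25549 genes). With array weights they numbered 0 of 59 (7 at an unadjusted limma p under 0.05, against 693 of 25549 genes called). With DESeq2 they numbered 7 (11.9%, against 7.51% of all genes). Without replicate 1 of every population they numbered 0 of 56 (7 unadjusted, against 522 of 19494 genes called). Without TA replicates 2 and 3 they numbered 0 of 51 (2 unadjusted, against 1.76% of all genes called), and without any 1 library 1. Between TA and D they numbered 38 with DESeq2 (64.4%, against 16.5%) and 12 without TA replicates 2 and 3 (23.5%, against 9.75%). These stood against 20 in the main fit (33.9%, against 12.5%), and 15 to 27 without 1 library.

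Over all genes, EVP against D gave 7609 calls with array weights (4106 to 5150 without 1 library), EVP against TA gave 1919 with DESeq2, 522 without replicate 1 of every population and 448 without TA replicates 2 and 3 (428 to 1209 without 1 library), and TA against D gave 2117 with quantile normalization and 5054 with array weights (2403 to 3581 without 1 library). Partner genes called were 15 to 21, 3 to 7 and 16 to 23 without 1 library in the 3 comparisons, and between EVP and TA 12 with DESeq2 and 3 without replicate 1. The test of the replicate number called 1282 genes with a minimum mean of 20, 1532 with quantile normalization and 37 without replicate 1, and 909 to 5850 without 1 library. Members called by it were 6 of 56 without replicate 1 (against 37 of 19494 genes) and 10 to 20 without 1 library.

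With the replicate number as a block, 22 members passed between EVP and D (37.3%, against 22.3% of all genes). Between EVP and TA 6 passed (10.2%, against 4.94%), all higher in TA, and between TA and D 34 (57.6%, against 15.8%), 33 of them higher in TA. The numbers were not taken as pairs in the main fits, since libraries of the same number did not deviate together throughout. The correlation of their deviations over 25549 genes ranged from -0.136 (EVP and TA, replicate 3) to 0.689 (EVP and D, replicate 1). Of 15 library pairs, 3, all of replicate 3, correlated better with another number, and the others correlated best with their own. In the main fits, differences between replicate numbers therefore count as spread between libraries. Depth limits members at or below 3 reads, which in D were 13 of 65 in every library.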
